A study of Caenorhabditis elegans with 2 samples.

Results

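The X chromosome of Caenorhabditis elegans carries 276 of the 612 nuclear genes that the Ensembl annotation of assembly WBcel235 (ce11) classes as tRNA genes. All 276 were kept, whether or not a peak of HLH-15 chromatin immunoprecipitation lay at them. Each gene was given the strongest peak whose summit, the position of highest enrichment, lay within 100 bp of it. The same was done in a list of peaks from the pooled replicates, in the list of each replicate and in the stricter IDR list, which keeps the peaks that met the authors' cut-off for the irreproducible discovery rate (IDR, a statistic that asks whether peaks keep their rank order from replicate to replicate).

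The peaks came from late embryos of hermaphrodite worms of strain OP566, whose genotype is given as unc-119(tm4063) III; wgIs566. The transgene wgIs566 carries the hlh-15 gene fused at the protein's C terminus to GFP-FLAG, and embryos were taken 3 h after synchronisation by egg bleaching. The study description names an antibody against GFP while the antibody label reads hlh-15, chromatin was sheared by sonication from whole animals, and the 2 libraries are biological replicates of a single group. There was therefore no contrast between conditions and no test over samples, and counts and shares below are descriptions of these lists, with Wilson 95% intervals that cover counting over genes only.

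A tRNA gene is transcribed by RNA polymerase III from promoter elements that lie inside the gene, the A box and the B box, and transcription stops at a short run of T residues just past its 3′ end. A tRNA is charged with 1 amino acid, its isotype, and many tRNA genes exist in identical copies that differ only in the sequence around them. HLH-15 belongs to the basic helix-loop-helix transcription factors, which as dimers bind E-boxes, written CANNTG.

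The X tRNA gene with the highest pooled signal was C04A11.t1 (WBGene00000308), which codes for a tRNA-Leu. It is shown first, because it is the only copy of its sequence in the genome. It lies at chrX:13665555-13665673 on the plus strand outside any protein-coding gene and contains an intron. Capitals mark GGTTCGA, the core of the B box.
C04A11.t1 gene: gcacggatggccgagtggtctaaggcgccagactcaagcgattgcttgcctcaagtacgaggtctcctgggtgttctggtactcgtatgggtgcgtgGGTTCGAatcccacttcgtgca

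The 100 bp in front of it, chrX:13665455-13665554, have a GC content of 50%, against a median of 39% over the X genes, and hold runs of alternating C and T. Capitals in all upstream sequences mark GAGAG or its reverse complement CTCTC, a motif picked after the peak lists had been compared with the sequences.
C04A11.t1 upstream: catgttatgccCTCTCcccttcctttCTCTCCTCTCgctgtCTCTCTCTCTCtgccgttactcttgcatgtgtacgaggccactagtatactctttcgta

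The largest family of identical tRNA genes on X codes for tRNA-Pro, with 13 copies on X of 24 in the genome. The shared gene is shown because the copies have the same sequence from end to end and yet differed in signal. The copy ZK899.t1 (WBGene00014634) is at chrX:9467729-9467800 on the minus strand, and the letters GGTTCGA are not in this gene.
tRNA-Pro family gene: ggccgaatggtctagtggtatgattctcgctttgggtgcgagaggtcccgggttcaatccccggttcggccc

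The 100 bp upstream of the 4 copies with an IDR peak are shown in order of pooled signal, each read in the direction of its gene. They lie at chrX:9467801-9467900 (ZK899.t1, minus strand), chrX:5801283-5801382 (F46G11.t2, minus strand), chrX:13512042-13512141 (H06A10.t1, minus strand) and chrX:3969456-3969555 (C16B8.t1, plus strand).
ZK899.t1 upstream: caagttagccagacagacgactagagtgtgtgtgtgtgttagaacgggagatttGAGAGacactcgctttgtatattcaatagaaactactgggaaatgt
F46G11.t2 upstream: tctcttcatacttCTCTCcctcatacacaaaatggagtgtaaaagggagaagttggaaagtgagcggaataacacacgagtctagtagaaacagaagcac
H06A10.t1 upstream: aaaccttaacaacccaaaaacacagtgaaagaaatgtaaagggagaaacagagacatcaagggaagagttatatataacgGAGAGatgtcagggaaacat
C16B8.t1 upstream: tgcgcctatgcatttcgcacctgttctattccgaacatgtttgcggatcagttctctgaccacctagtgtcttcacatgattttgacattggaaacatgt

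For comparison, the same windows are shown for the 4 copies that come first along X among those without a peak in any list. They lie at chrX:5801372-5801471 (F46G11.t1, plus strand), chrX:8969560-8969659 (C48C5.t3, minus strand), chrX:14437945-14438044 (F23D12.t2, minus strand) and chrX:14438002-14438101 (F23D12.t1, plus strand). The windows of the last pair overlap each other, as do those of F46G11.t1 and F46G11.t2, since these genes stand back to back.
F46G11.t1 upstream: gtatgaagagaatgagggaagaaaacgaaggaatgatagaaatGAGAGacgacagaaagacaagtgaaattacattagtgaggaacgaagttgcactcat
C48C5.t3 upstream: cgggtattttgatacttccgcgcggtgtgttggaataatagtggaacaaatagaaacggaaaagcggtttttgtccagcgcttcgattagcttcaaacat
F23D12.t2 upstream: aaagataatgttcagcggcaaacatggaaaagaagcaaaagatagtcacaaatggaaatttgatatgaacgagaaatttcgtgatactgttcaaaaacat
F23D12.t1 upstream: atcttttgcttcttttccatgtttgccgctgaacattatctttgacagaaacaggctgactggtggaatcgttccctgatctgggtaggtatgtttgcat

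An IDR peak lay at 64 of the 276 X tRNA genes, 23.2% (18.6 to 28.5), while the background over all 612 tRNA genes was 21.1%. On the autosomes the share was 65 of 336, 19.3% (15.5 to 23.9), so the intervals of X and the autosomes overlap. The longer pooled list, which also holds background peaks, reached 136 of the X genes, 49.3% (43.4 to 55.1), against 50.7% of all tRNA genes. Replicate 1 reached 120 X genes (background 45.8%) and replicate 2 reached 134 (background 46.4%). A peak in both replicates was found at 98 X genes, 35.5%, against 34.5% of all tRNA genes. No peak in any list was found at 114 X genes, 41.3%, and at 131 of 336 autosomal ones, 39.0%. In these counts X stood close to the background of all tRNA genes or, for the last count, to the autosomal share.

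X genes of the ncRNA class and tRNA pseudogenes on X gave lower shares. Other classes of non-coding RNA genes were not counted here. Of 2332 X genes of the ncRNA class that lie over 500 bp from a tRNA gene, 0.257% had an IDR peak and 12.5% a pooled peak. Of 29 tRNA pseudogenes on X in the RefSeq annotation, 0 had an IDR peak (interval up to 11.7%) and 2 had a pooled peak. X held 87 IDR peaks in all, and 62 of them, 71.3% (61.0 to 79.7), were the peaks of the 64 tRNA genes. This share describes X only. The IDR list held 407 peaks over all chromosomes, and 65 autosomal tRNA genes had an IDR peak. Of the 2831 pooled peaks on X, 132 served the 136 genes, and 8 of these genes shared a peak with a neighbour.

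Peak signal is a score set by the authors, on a scale that the sources used here do not state. Its level differs between lists, with a median over all peaks of 16.1 in replicate 1 and 9.97 in replicate 2. In the pooled list the signal ran from 19.2 to 194 over the X tRNA genes with a peak, with a median of 55.9. Over all 17654 pooled peaks the median was 23.9. The autosomal tRNA genes with a pooled peak had a median of 46.3. The IDR list is a cut of the pooled list by signal, so that the X genes in it run from 60.6 (F55F3.t1, tRNA-Lys) upwards with a median of 84.9, and the strongest gene outside it, K11E4.t6, had 58.6.

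The 10 genes with the highest pooled signal cover tRNAs for Leu, Lys, Glu, Gly, Ala, Asp and Ile. C04A11.t1, the single-copy tRNA-Leu gene, had a pooled signal of 194, with 129 in replicate 1 and 71.8 in replicate 2, and its peak was number 14 both in the pooled list and for replicate 1 and number 19 in replicate 2. W03G11.t1, 1 of 25 identical tRNA-Lys genes, had 186 pooled, 125 in replicate 1 and 67.1 in replicate 2. The tRNA-Glu gene M02F4.t2 and the tRNA-Gly gene M02F4.t1 stand back to back 116 bp apart and share a single peak with its summit between them, at 183 pooled, 90.9 in replicate 1 and 86.3 in replicate 2. For this pair the list does not show to which gene the signal belongs. F15G9.t1, a tRNA-Ala gene inside an intron of him-4 (hemicentin, an extracellular matrix protein), had 172 pooled, 105 in replicate 1 and 64.2 in replicate 2. The tRNA-Asp gene F38G1.t2, inside egl-17 (a fibroblast growth factor) on its opposite strand, had 159, 92.3 and 65.9 in the same order.

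The last 4 of the 10 lay between 140 and 150 in the pooled list. C28G1.t1 (tRNA-Glu) had 150 pooled, 97.6 in replicate 1 and 60.7 in replicate 2. C04E7.t1 (tRNA-Leu) had 147 pooled, 91.6 in replicate 1 and 48.6 in replicate 2. T07H6.t2 (tRNA-Ala) had 141 pooled, 90.6 in replicate 1 and 48.3 in replicate 2, and C42D8.t1 (tRNA-Ile) had 140, 77.5 and 52.1. All 10 were in both replicate lists among the first 75 peaks. Of the 10, 8 hold GAGAG or CTCTC in the upstream 100 bp, the exceptions being the M02F4 pair. Over all 276 X genes, 81 hold it. The motif was picked on these genes for its difference between peak classes, so the count of 8 gives no independent evidence.

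**Figure D1:**
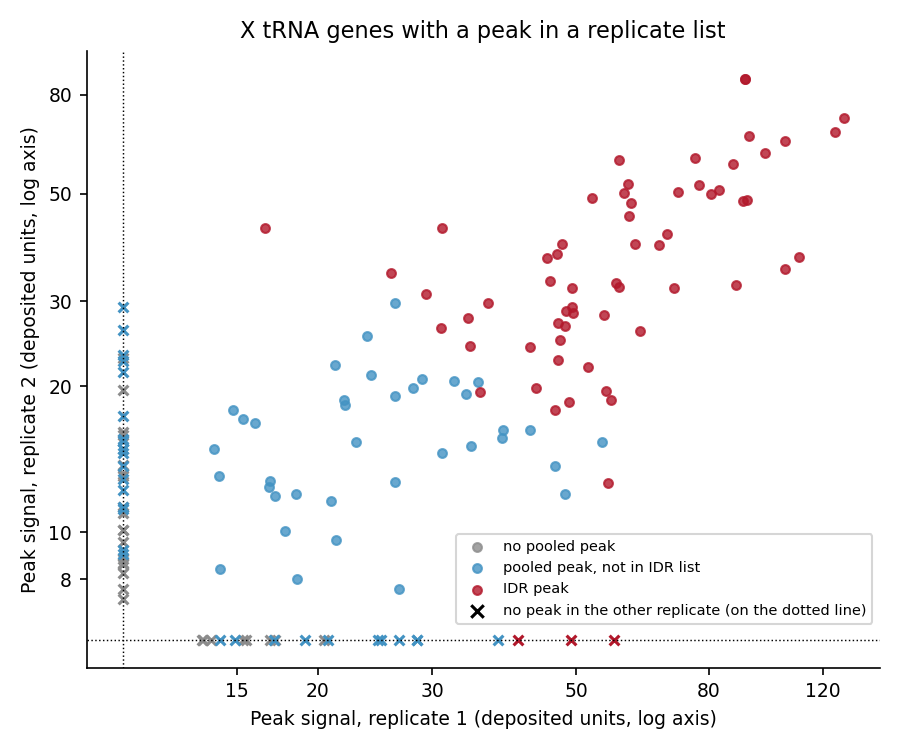
Peak signal in replicate 1 (x axis) and replicate 2 (y axis), both in the deposited units on log axes, for X tRNA genes with a peak in at least 1 replicate list. Each point is a gene, coloured by its class in the pooled and IDR lists. Crosses on a dotted line have no peak in the other replicate, which holds for 3 of the 64 genes with an IDR peak.

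Over the 98 X genes with a peak in both replicates, Spearman's rho of the signal was 0.75 and Pearson's r of the log2 values was 0.75, and over the 113 autosomal ones 0.62 and 0.64. These genes share libraries and, in part, sequence, so the values are descriptions across genes. Of the 64 genes with an IDR peak, 61 had a peak in both replicates, against 37 of the 72 genes with only a weaker pooled peak. None of the 140 genes without a pooled peak had a peak in both replicates, and 26 had one in 1 of them. The pooled and IDR lists were made from these same replicates, so these counts are no independent check of the lists.

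Some genes in the IDR list ranked far apart in the replicates. The tRNA-Arg gene C14F11.t1 was number 158 in replicate 1 with a signal of 56.0 but number 6967 in replicate 2 with 12.7. C11E4.t1 (tRNA-Ala) and H06A10.t1 (tRNA-Pro) also ranked higher in replicate 1, at 259 and 155 against 1560 and 1238. The reverse held for C53C7.t1 (tRNA-Ser), number 9698 in replicate 1 with 16.6 and number 104 in replicate 2 with 42.4. Its pooled peak, with the summit 88 bp from the gene, is shared with the neighbour C53C7.t2, as is the replicate 2 peak. In replicate 1 C53C7.t2 had a peak of its own, number 783 with a signal of 31.1. F02D10.t2 (tRNA-Ser) and F55F3.t1 (tRNA-Lys) ranked higher in replicate 2 as well, at 168 and 226 against 1620 and 975. F22F1.t5 (tRNA-Asp), F42D1.t1 (tRNA-Cys) and F55G7.t2 (tRNA-Thr) had no replicate 2 summit within 100 bp, the nearest lying 146, 160 and 832 bp away.

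All 20 amino acid isotypes named on X had at least 1 gene with an IDR peak. The 3 X genes that RefSeq gives no isotype had no peak in any list. The share with an IDR peak was highest for tRNA-Ala, with 6 of 13 genes, tRNA-Asp, with 5 of 12, and tRNA-Tyr, with 3 of 8, a type in which all 8 X genes have an intron. It was 7 of 20 for tRNA-Gly, 2 of 6 for tRNA-Asn and for tRNA-Phe, 5 of 17 for tRNA-Leu, 2 of 7 for tRNA-Cys and 5 of 20 for tRNA-Pro. The lowest shares were those of tRNA-Gln, with 1 of 15, tRNA-Met, with 1 of 8, tRNA-Val, with 2 of 14, tRNA-Arg, with 4 of 27, and tRNA-Ile, with 2 of 13. Between these came tRNA-Ser and tRNA-His at 4 of 18 and 2 of 9, tRNA-Thr at 3 of 14, tRNA-Trp at 1 of 5, tRNA-Glu at 4 of 23 and tRNA-Lys at 3 of 18. With so few genes each, the order of the isotypes is loose, and it differed on the autosomes, where tRNA-Ala had 3 of 21 and tRNA-Arg 7 of 17.

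The strongest gene of each isotype was in the IDR list, which follows from the counts above because that list is a cut by signal. Beyond the 7 isotypes among the 10 strongest genes, R01H5.t1 (tRNA-Thr) had 139 pooled, 87.3 in replicate 1 and 57.5 in replicate 2. R04D3.t2 (tRNA-Val) had 138, 76.2 and 59.3, and C06G1.t1 (tRNA-His) had 135, 80.7 and 49.9. The tRNA-Tyr gene C02B4.t2, on the opposite strand inside the nuclear receptor gene nhr-17, had 134, 82.9 and 51.0. These 4 lay close together in all lists. F41D9.t3 (tRNA-Asn) had 133 pooled with 110 in replicate 1 but 37.0 in replicate 2, and E03E2.t1 (tRNA-Ser) had 123 with 88.2 and 32.4. ZK899.t1 (tRNA-Pro) had 122, 71.8 and 50.5. T28B4.t1 (tRNA-Phe) had 108, 70.9 and 32.0. Those for Met (C02F12.t1), Arg (F28H6.t1), Gln (R04A9.t1) and Cys (F12D9.t1) had pooled signals of 106, 104, 87.7 and 83.8.

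The weakest leader was the tRNA-Trp gene sup-7, known as a locus of amber suppressor mutations, with 77.4 pooled, 52.1 in replicate 1 and 21.9 in replicate 2. Of the other 3 identical tRNA-Trp genes on X, sup-28 had 34.2 pooled, 18.5 in replicate 1 and 12.0 in replicate 2. The genes sup-21 and sup-33 had no pooled peak, and sup-21 had a replicate 2 peak of 8.60. These 4 genes share 1 sequence, and only sup-7 was in the IDR list and holds the GA motif upstream. Since the motif was picked on the X genes, this gives no independent evidence.

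Neither strand nor position inside a protein-coding gene separated the genes clearly. An IDR peak lay at 31 of 136 plus-strand genes, 22.8% (16.5 to 30.5), and at 33 of 140 minus-strand genes, 23.6% (17.3 to 31.2). Outside protein-coding genes the share was 43 of 180, 23.9% (18.2 to 30.6), and inside one 21 of 96, 21.9% (14.8 to 31.1). Among those inside, it was 10 of 51 on the strand of the host gene and 11 of 45 on the other strand, and the intervals overlap throughout. In the pooled list the inside genes came out higher, with 52 of 96 against 84 of 180, so the direction depended on the list. It also turned in the strongest peaks of either replicate alone, where inside genes were 0.903 and 3.40 percentage points higher.

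The 96 inside genes lie in 68 host genes, 16 of which hold more than 1. The hosts with most tRNA genes, K01A12.3 and the apical junction gene ajm-1 with 5 each, had none in the IDR list. In the pooled list they had 2 and 1. Hosts with 3 each were the channel genes deg-1 and unc-58 and pix-1, srxa-9, tbc-12 and wrt-9, with none in the IDR list. Genes with a pooled peak numbered 2 each in deg-1, unc-58 and tbc-12, 1 in pix-1 and 0 in srxa-9 and wrt-9. In him-4 both were in the IDR list, F15G9.t1 and its neighbour F15G9.t2 (tRNA-Ala, 69.0 pooled). The genes in K01A12.3, ajm-1 and him-4 also stand in clusters with gaps of at most 1 kb, so host and spacing cannot be told apart there.

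The share with a peak was smaller among single-copy genes than among genes with an identical copy elsewhere in the genome. Of 57 single-copy X genes 6 had an IDR peak, 10.5% (4.91 to 21.1), against 58 of 219 with a copy, 26.5% (21.1 to 32.7). The intervals overlap at their ends, and in the pooled list the counts were 19 of 57 and 117 of 219. On the autosomes the order was the same, with 11 of 86 and 54 of 250. When a copy had to be identical over 20 bp of flank as well, the direction turned, but only 4 X genes had such a copy and 0 of them had an IDR peak. The 6 single-copy genes were C04A11.t1, K09A11.t1 (tRNA-Tyr, 118), F22F1.t5, F32A6.t1 (tRNA-Phe, 74.6), R02E12.t1 (tRNA-Gly, 70.2) and C02B4.t1 (tRNA-Ile, 65.8). Where several copies exist, a read inside the gene fits them all, and the sources used here do not say how the authors placed such reads. The share of unique 50-base stretches over the gene and 100 bp to each side had a median of 94.6% for single-copy X genes and 83.9% for those with a copy. It therefore differed with copy class, and its part in the result was not tested. By peak class the medians were 84.1% with an IDR peak and 85.3% without a pooled peak.

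Identical genes differed from each other in peak class and in signal. X holds 33 families of at least 2 identical genes, 203 genes in all, and in 27 families some copies but not all were in the IDR list. In the other 6 no copy was, and in 0 families were all copies. Over all X tRNA genes the share with an IDR peak was 23.2%. Whether families were mixed more or less often than this share gives was not tested. In the 27 families with at least 2 pooled peaks, the highest signal exceeded the lowest by a median of 3.82-fold, with a range of 1.04 to 8.38. Copies without a pooled peak are left out of this ratio. Over all X genes with a pooled peak the signal ran from 19.2 to 194. In the tRNA-Pro family the signal fell from 122 at ZK899.t1 over 113 at F46G11.t2, 77.1 at H06A10.t1 and 64.6 at C16B8.t1 to 19.5 at R04D3.t3. That last gene was listed at 17.4 in replicate 2 and was without a replicate 1 peak, and the other 8 copies had no pooled peak.

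The next families showed the same split. Among the 12 tRNA-Glu copies, M02F4.t2 (183, shared peak) and rte-1 (73.5) were in the IDR list, 3 had weaker peaks down to 21.8 at F15A8.t2, which was in neither replicate list, and 7 had none. Among the 11 tRNA-Gly copies, M02F4.t1 (183, shared peak), F56C3.t1 (88.2) and K09C8.t1 (85.4) were in the IDR list and 8 had no pooled peak. K09C8.t1, the lowest of these with a peak, had 47.6 in replicate 1 and 39.4 in replicate 2. Of the 10 tRNA-Arg genes that occur only on X, 2 were in the IDR list. In the pooled list 9 of them had a peak, from 20.2 at F09B9.t2 to 84.3 at C03A3.t1, against 49.3% of all X genes. The 9 identical tRNA-Leu genes, also found only on X, ran from 19.2 at F08F1.t2 to 147 at C04E7.t1 with 3 copies without a pooled peak.

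**Figure D2:**
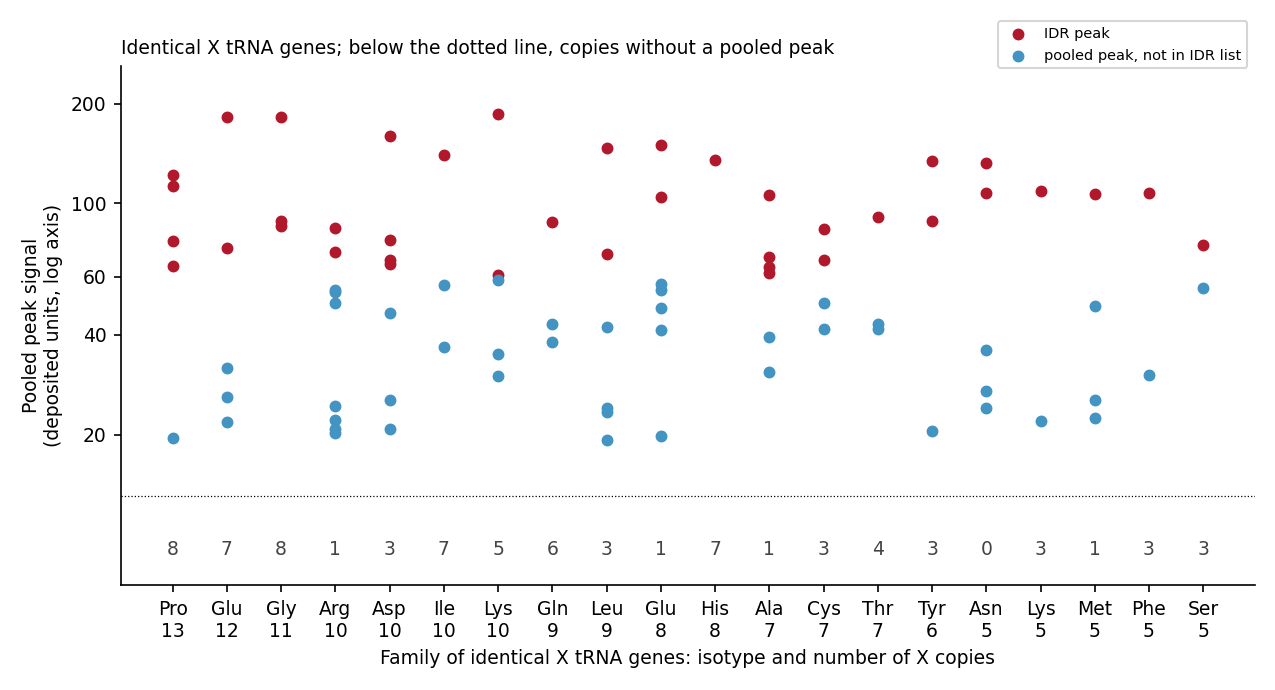
Pooled peak signal (y axis, deposited units, log axis) of identical X tRNA genes, with 1 column for each family of at least 5 copies, labelled by isotype and number of X copies. Points are genes with a peak, and the numbers below the dotted line count the copies without a pooled peak, 8 in the tRNA-Pro and tRNA-Gly columns and 0 in the tRNA-Asn column. Points of most columns span a range of several fold.

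The share with a peak was larger among genes that stand alone than among genes in clusters. Of the 97 X genes over 5 kb from the next tRNA gene 38 had an IDR peak, 39.2% (30.1 to 49.1), against 10 of 44 at 1 to 5 kb, 22.7% (12.8 to 37.0), and 16 of 135 within 1 kb, 11.9% (7.43 to 18.4). The pooled list gave 65, 26 and 45 genes in the same order, or 67.0%, 59.1% and 33.3%. Autosomal genes over 5 kb apart reached 24.2% (18.7 to 30.8), those at 1 to 5 kb 22.2% (12.5 to 36.3) and those within 1 kb 8.91% (4.76 to 16.1). In the pooled list the autosomal shares lay closer together than on X, at 55.3%, 48.9% and 46.5%. The spacing classes were chosen after values were seen.

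X genes with gaps of at most 1 kb form 54 clusters, and 13 of them hold at least 1 gene with an IDR peak while 23 hold no pooled peak at all. The cluster of 6 tRNA-His genes from F28H6.t2 to F28H6.t5, at chrX:14135045-14137010, had no pooled peak. The cluster of 6 from F22F1.t2 to F22F1.t7, at chrX:8154445-8156707, held 1 gene in the IDR list, F22F1.t5 with 76.5 pooled and 40.7 in replicate 1. In the cluster of 4 identical tRNA-Tyr genes of R11, at chrX:16208263-16209852, only R11.t1 had a pooled peak, at 88.5, with 62.7 in replicate 1 and 26.1 in replicate 2. Along the chromosome the share was highest from 2 to 4 Mb, with 10 of 16 genes, and low from 8 to 10 Mb, with 10 of 71, and in the segments from 14 to 16 and from 16 to 18 Mb, with 5 of 34 each. In the pooled list these 3 segments had 42.3%, 23.5% and 32.4%, so their order depended on the list. From 8 to 10 Mb, the segment with most tRNA genes, 44 of the 71 lie within 1 kb of another.

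The GC content in front of the genes went with the peak class, while that of the genes themselves was alike. The median GC content of the 100 bp upstream was 46% for the 64 genes with an IDR peak, 41% for the 72 with a weaker pooled peak and 36% for the 140 without one. Downstream the medians were 28.5%, 28% and 27%, and within the gene 58.3%, 58.9% and 58.3%. On the autosomes the upstream medians were 49%, 46% and 40%. On X and on the autosomes the higher GC content of genes with an IDR peak was in the near upstream sequence. In the 20 bp bin centred 50 bp upstream the X mean was 47.5% with an IDR peak and 36.0% without a pooled peak, and in the bin centred 190 bp upstream 31.2% and 36.2%. The autosomal means were 52.1% and 40.2% in the first bin and 38.2% and 38.3% in the second. Of the 88 X genes with an upstream GC content of at most 35%, 2 had an IDR peak, 2.27% (0.625 to 7.91), and of the 46 between 45 and 50%, 23 had one, 50% (36.1 to 63.9). In the same GC classes the autosomal shares were 1.49% and 29.6%. Over the 136 X genes with a pooled peak, Spearman's rho of upstream GC and pooled signal was 0.48, and over the 174 autosomal ones 0.42. Both are descriptions across genes. GC content can itself affect how many reads are recovered, and its part in these shares was not tested.

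**Figure D3:**
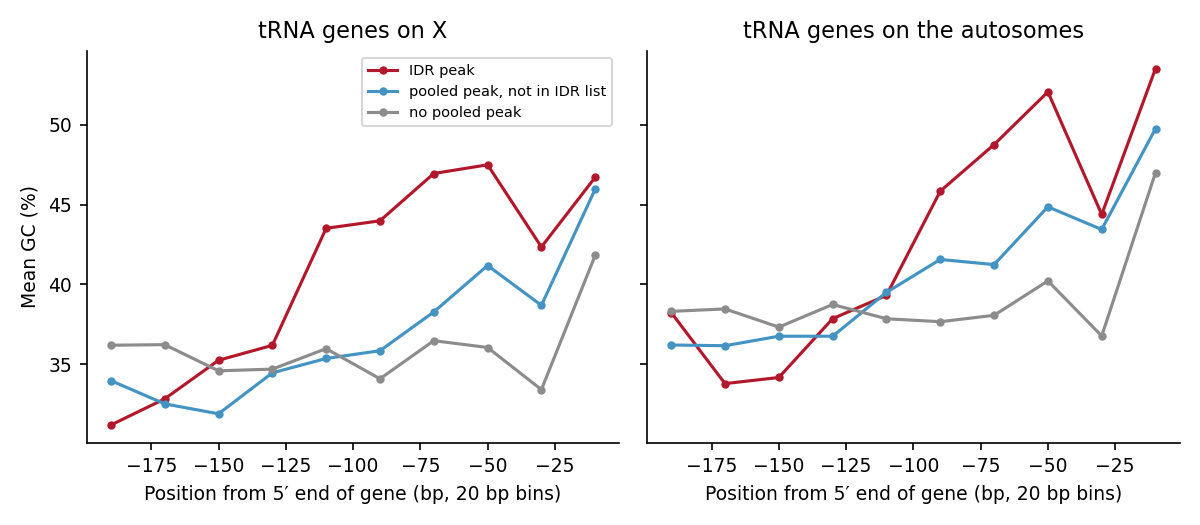
Mean GC content (y axis, percent) in 20 bp bins of the 200 bp upstream of tRNA genes (x axis, position from the 5′ end) on X and on the autosomes, by peak class. On X the mean of genes with an IDR peak rises from 31.2% in the bin centred 190 bp upstream to 47.5% in the bin centred 50 bp upstream, where genes without a pooled peak have 36.0%.

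A GA motif was the 5-base sequence that differed most between the classes. All 512 pairs of a 5-base sequence and its reverse complement were counted in the upstream 100 bp of the X genes. GAGAG with CTCTC had the largest difference, present at 46 of 64 genes with an IDR peak, 71.9% (59.9 to 81.4), at 16 of 72 with a weaker pooled peak, 22.2% (14.2 to 33.1), and at 19 of 140 without one, 13.6% (8.86 to 20.2). The pair AGAGA and TCTCT, which overlaps it, came next. Having been picked for this difference, the motif gives no independent evidence on X. The autosomal genes, on which it was not picked, had it at 39 of 65, 60% (47.9 to 71.0), at 31 of 109, 28.4%, and at 29 of 162, 17.9% (12.8 to 24.5), in the same order. Their classes come from the same libraries and lists. Among them GAGAG with CTCTC had the second largest difference, 42.1 percentage points, after AGAGA with TCTCT, 44.5. As a reference, the motif was in 17.0% of the 100 bp windows upstream of 19973 protein-coding genes, in 18.5% of those on X and in 12.4% of X cut into 100 bp windows.

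Read the other way, 46 of the 81 X genes with the motif had an IDR peak, 56.8% (45.9 to 67.0), against 18 of the 195 without it, 9.23% (5.92 to 14.1). On the autosomes the shares were 39.4% (30.3 to 49.2) and 11.0% (7.60 to 15.6). In the list of replicate 1 alone 59 of the 81 and 61 of the 195 X genes had a peak, and in that of replicate 2 64 and 70. The motif and GC content go together, with a median upstream GC of 44% with and 38% without it. Among X genes with an upstream GC over 40%, 39 of 57 with the motif and 13 of 63 without it had an IDR peak, and among the rest 7 of 24 and 5 of 132. By spacing, the counts with and without the motif were 28 of 36 and 10 of 61 over 5 kb, 7 of 14 and 3 of 30 at 1 to 5 kb, and 11 of 31 and 5 of 104 within 1 kb. These are the X genes on which the motif was picked and give no independent support. On the autosomes the counts were 38 of 82 and 21 of 132 with an upstream GC over 40%, but 1 of 17 and 5 of 105 among the rest, where the shares were close. By spacing they were 30 of 74 and 16 of 116 over 5 kb, 5 of 10 and 5 of 35 at 1 to 5 kb, and 4 of 15 and 5 of 86 within 1 kb.

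**Figure D4:**
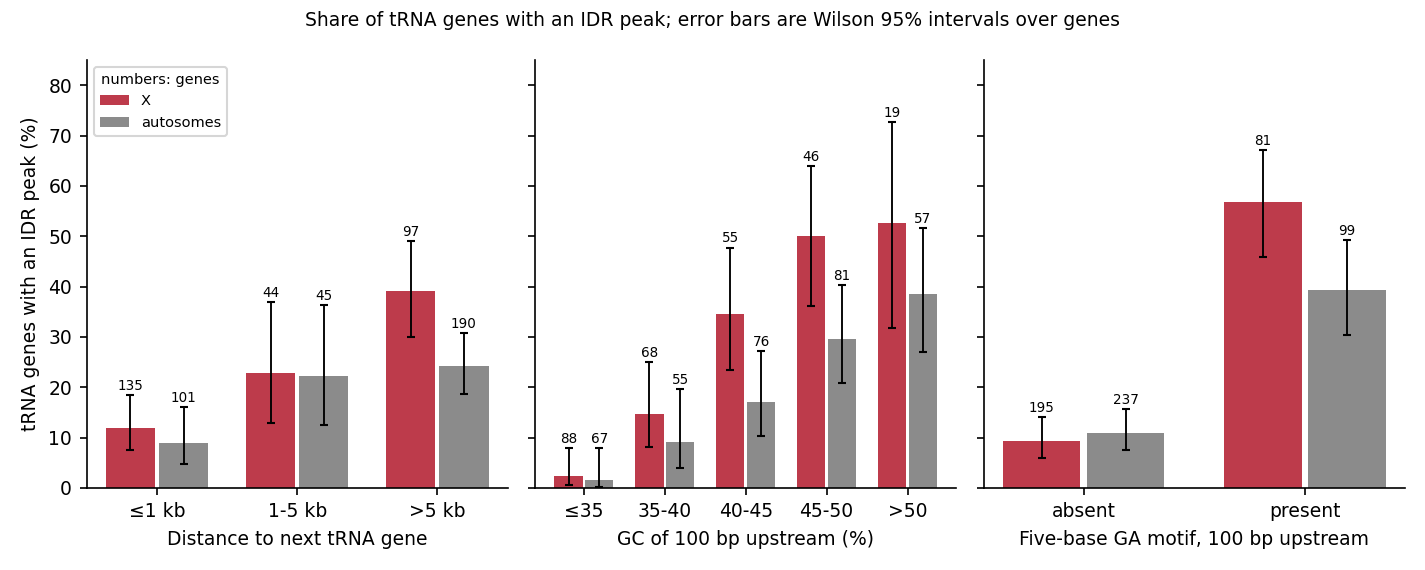
Share of tRNA genes with an IDR peak (y axis, percent) on X and on the autosomes by distance to the next tRNA gene, by GC content of the upstream 100 bp and by presence of the 5-base GA motif there. Error bars are Wilson 95% intervals over genes and the number above each bar is the number of genes. On X the share is 39.2% over 5 kb and 11.9% within 1 kb, and 56.8% with the motif and 9.23% without.

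The same genes can be counted within families of identical copies, where the gene itself cannot differ. On X this adds no independent evidence, since the motif was picked on these genes. In the 27 families with some copies in the IDR list, 36 of 50 copies in the list had it, 72%, against 21 of 137 other copies, 15.3%. The share was higher among copies in the list in 24 of the 27 families, equal in 1 and lower in 2. On the autosomes, 33 families had some but not all copies in the list, with the motif at 30 of 52 copies in the list and 37 of 155 others. There the share was higher among copies in the list in 21 families, equal in 5 and lower in 7. In the X families the median upstream GC content was 44% for copies in the list and 37% for others, and 60% against 23.4% of copies lay over 5 kb from the next tRNA gene. The tRNA-Pro sequences above show this and its exceptions: the motif is in front of ZK899.t1, F46G11.t2 and H06A10.t1, not of C16B8.t1, and it is also in front of F46G11.t1, which had no peak. The 4 R11 genes for tRNA-Tyr follow it, as only R11.t1 holds the motif. The tRNA-Gly family does not, since M02F4.t1, F56C3.t1 and K09C8.t1 lack the motif and ZK154.t4, without a peak, has it. Upstream windows of 38 of the 276 genes overlap another such window, so the windows are not all separate sequence.

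Elements of the gene and E-boxes did not separate the classes in this way. The B box letters GGTTCGA, read on the strand of the gene, were in 39 of 64 genes with an IDR peak, 60.9% (48.7 to 71.9), and in 93 of 140 without a pooled peak, 66.4% (58.3 to 73.7), beside 0.221% of X cut into 72 bp windows. A run of TTTT within 40 bp past the 3′ end was found at all 64 and at 137 of the 140, against 43.3% of 40 bp windows of X. An E-box, CANNTG, which reads the same on both strands, lay in the 100 bp to either side of 34 of 64 genes with an IDR peak, 53.1% (41.1 to 64.8), of 49 of 72 with a weaker peak, 68.1%, and of 74 of 140 without, 52.9% (44.6 to 60.9). In pairs of 100 bp windows of X with the same spacing the share was 55.4%. A match of letters is no site of binding, and a missing match says nothing of the factor.

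Because a summit had to lie within 100 bp of the gene, all summits counted lay in or near it by rule. Their position within that range differed between the lists. The IDR summit was at a median of 12.5 bp downstream of the 5′ end, with quartiles of -12 and 38.5 bp, and 40 of the 64 lay inside the gene, 20 upstream and 4 downstream of it. Among the same number of strongest peaks of a single replicate the median was 12 bp without replicate 1 and 37.5 bp without replicate 2, and over the whole pooled list it was 31 bp. For the 72 weaker pooled peaks the median was 46.5 bp, with quartiles of 4.25 and 90 bp, and 33 were inside the gene, 17 upstream and 22 downstream. The genes nearest to the limit were F42F12.t1 (tRNA-Leu, 92 bp, 20.3 pooled) and F08F1.t2 (tRNA-Leu, 99 bp, 19.2 pooled) inside it and the tRNA-Ser genes K02A4.t1 (113 bp) and Y7A5A.t4 (119 bp) outside it. K02A4.t1 had a replicate 2 peak of 22.9 and Y7A5A.t4 one of 8.24.

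**Figure D5:**
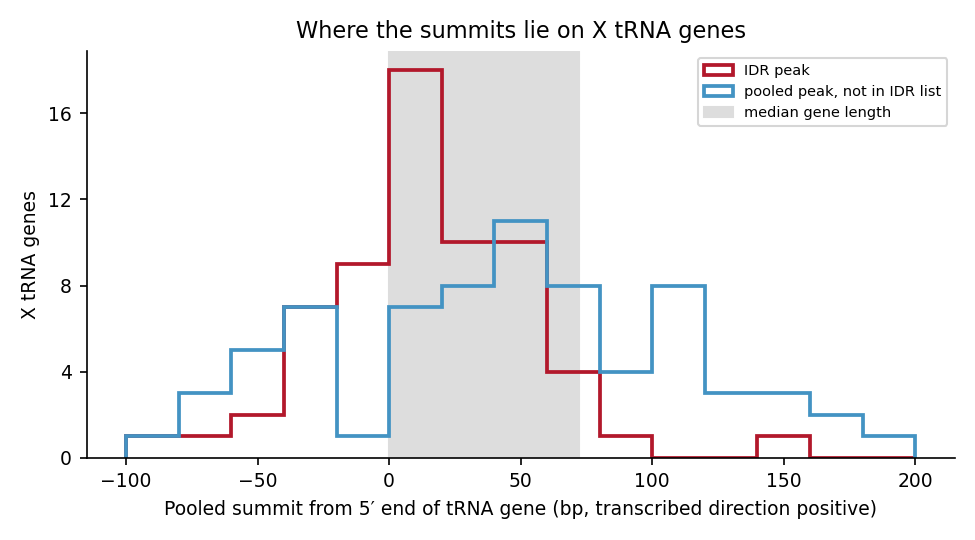
Number of X tRNA genes (y axis) by position of the pooled summit relative to the 5′ end of the gene (x axis, bp, positive in the direction of transcription), in bins of 20 bp, for the 64 genes with an IDR peak and the 72 with a weaker pooled peak. The grey band is the median gene length of 72 bp. The IDR summits have a median of 12.5 bp, which is 37.5 bp in the strongest peaks without replicate 2, and the weaker summits have a median of 46.5 bp.

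Read depth is unknown. No peaks of another factor or of an untagged strain were analysed here, so whether the signal at these genes is particular to HLH-15 was not tested.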

How the data were processed

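Chromatin immunoprecipitation with sequencing of late embryos was analysed from the peak lists in ce11. Per the notes deposited with them, the authors made the lists of each replicate and of the pooled replicates from alignments with a control library as input to the IDR step, and the IDR list from those. Column 7 of the deposited lists holds the signal value, a score set by the authors. Its scale, the aligner, the caller and the depth were not given in the sources used here. Lists in ce10 were not used, since no annotation of that assembly was at hand.

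Genes came from Ensembl release 115 of WBcel235, isotypes and pseudogenes from the RefSeq annotation (all 612 tRNA genes matched by identifier) and sequence from RefSeq. No peak ran past the end of a chromosome. Copies were identical over the whole gene. Assignment was tested on simulated peaks planted at 90 tRNA genes that stand apart from other tRNA genes, with 0 wrongly assigned. Such genes cannot show how peaks are assigned within clusters, which was not tested. Analyses used Python 3.11.15, pandas 2.3.3, NumPy 2.4.6, SciPy 1.17.1 and matplotlib 3.10.9. Alternatives covered other distances, peak overlap, list cut-offs, single replicates and other windows. With 2 samples of 1 group there is no test.

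Named genes were the 10 strongest, the strongest of each isotype, the ends of the 3 largest families, those next to the 100 bp limit and those whose replicate ranks differed most; other genes named, such as the sup genes, hosts and cluster members, were chosen after their values were seen. The members and lists were chosen with earlier results of these data known.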

Additional observations from a re-analysis of the deposited data

How the results depend on the processing

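Of 70 alternatives computed, 35 kept the direction and size of a result, 29 moved a value and 6 reversed a difference; those for spacing and for the GA motif were added after seeing the data, and the causes were not tested. Moves of differences and of the summit distance were judged against the spread of the values without 1 replicate, which is narrow for some results. Counts were judged by a fixed fold limit, and the median signal and Spearman's rho by an interval around the main value. A count called kept can therefore differ, as with 64 X genes with an IDR peak and 53 without replicate 1. Counting only summits inside the gene gave 73 genes with a pooled peak, 40 with an IDR peak and 27 with a peak in both replicates, a median pooled signal of 65.4, and differences of -2.48 points between strands, 7.21 for copies and 31.9 for the motif. At 250 bp the difference between inside and outside a coding gene was -4.79 points, that for copies 13.8 and that for the motif 48.5. The stronger 204 IDR peaks left 35 X genes, 4.65 points for X minus autosomes, 11.6 for copies, 16.5 for spacing and 31.0 for the motif. Without replicate 1 or 2 (the same number of strongest peaks of the other), X minus autosomes ranged from 4.48 to 5.21 points, the strand difference from -2.27 to -0.168, the inside difference reversed to 0.903 and 3.40, copies from 14.1 to 15.4, the median summit distance from 12 to 37.5 bp, spacing from 19.5 to 30.3 and the motif from 39.1 to 39.2. In the whole pooled list X minus autosomes reversed to -2.51 points, the strand difference to 4.33 and the inside difference to 7.50; copies gave 20.1, the motif 38.6 and the median distance 31 bp. Only introns on the strand of the host gave -5.89 points. Copies identical over 20 bp of flank reversed the copy difference to -23.5 points, with only 4 such genes, 0 with an IDR peak. The motif gave 24.3 points within 50 bp and 39.0 within 200 bp upstream. The difference for spacing and that for the motif stayed above 0 in every alternative run. No paired analysis was possible because the study has only 1 group. Depth is unknown, so what it limits cannot be given.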
